A study of Homo sapiens with 8 samples.

Results

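The genes described here are BMP2, TGFB1, TGFBR2, SMAD3, SMAD7, SKIL, TGIF1, ID1, ID2 and ID3, a set chosen by name as genes of BMP and TGF-beta signalling. They are 10 of the 22627 gene symbols in the deposited tables, and they were chosen with earlier results of these data known. NB4 is a human acute promyelocytic leukaemia cell line with the PML-RARA fusion, and each of its 2 derived lines here carried a lentiviral hairpin. One targets TFEB (shTFEB), which encodes a transcription factor known for lysosomal and autophagy targets, and the other is a scrambled control (shScr). The 4 groups were shTFEB cells with all-trans retinoic acid (ATRA), shScr cells with ATRA, shTFEB cells with ethanol vehicle and shScr cells with ethanol vehicle, each for 72 h and with ATRA at 1 µM. The labels list 2 samples per group, 8 in all. Wild-type NB4, also part of the design, is not among these samples and was not analysed here. All values therefore come from hairpin-carrying cells of 1 leukaemia line, and the labels do not say whether the lines are clones or pools.

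BMPs and TGF-beta are secreted dimers of one protein superfamily. They bind pairs of serine/threonine kinase receptors, which phosphorylate receptor-regulated SMAD proteins: SMAD2 and SMAD3 for TGF-beta, SMAD1, SMAD5 and SMAD9 for BMPs. These join SMAD4 in the nucleus, where co-repressors such as SKIL and TGIF1 hold their targets down and where the inhibitory SMAD7 gene is itself a target. ID1, ID2 and ID3 are classical BMP targets; their proteins have a helix-loop-helix but no DNA-binding region, and they keep E proteins such as TCF3 off DNA. In blood cells TGF-beta is best known as a brake on the proliferation of progenitors.

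The level of a gene is given in FPKM, mapped fragments scaled to transcript length and library depth, summed over the transcript models of its symbol. The tables hold 1 value per model and group, so there is no spread between samples, no test and no p-value, and the differences are sizes of ratios that no replicate checks. Each value comes with a lower and an upper bound as deposited. Because those bounds enclosed the value itself in only 77.5% to 80.4% of well-estimated models, they are used as printed and not as confidence intervals. Rose and fell are used where log2 of the ratio, with 1 FPKM added to both values, reached 1 in size, a 2-fold mark. The mark was applied to the 11052 genes that averaged 1 FPKM or more across the 4 groups. The added 1 FPKM understates the change of low genes, so plain folds are given beside it. Depth, read from the spacing of the lowest values, was about 55.8 M fragments (M, mega) for shTFEB with ATRA, 64.1 M for shScr with ATRA, 72.0 M for labelled shTFEB with vehicle and 61.3 M for shScr with vehicle. These absolute depths rest on 7 to 21 short models per group and are approximate.

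The hairpin was checked on its target. TFEB stood at 8.44 FPKM in shTFEB ATRA cells (bounds 7.41 to 9.51) and at 19.4 FPKM in shScr ATRA cells (17.9 to 20.9), a level 43.6% of the control. Under vehicle it stood at 1.35 FPKM in the group labelled shTFEB (1.11 to 1.63) and 1.203 FPKM in shScr (0.928 to 1.52), which is not lower, so that group is called vehicle cells labelled shTFEB in what follows. A direction drawn from it rests on a label that TFEB mRNA did not bear out, and this includes the response to ATRA in shTFEB cells.

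Sequence upstream of 5 of the genes is shown. The 3 ID genes are shown as BMP targets of 1 family that differ widely in level, with a BMP-type SMAD motif marked. SMAD3 and SKIL are shown because each was the only one of the 9 genes with a window to hold the motif marked in it. No window was available for BMP2, so its upstream sequence was not searched. The windows are the 250 bases before a RefSeq transcript start on the GRCh38.p14 build, written 5′ to 3′ on the gene's strand: chr20:31605039-31605288 (+) for ID1, chr2:8681806-8682055 (+) for ID2, chr1:23559502-23559751 (−) for ID3, chr15:67065352-67065601 (+) for SMAD3 and chr3:170357465-170357714 (+) for SKIL. Capitals mark GGCGNC or its reverse complement in the ID genes, CACGTG in SMAD3 and TGACGTCA in SKIL.

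ID1: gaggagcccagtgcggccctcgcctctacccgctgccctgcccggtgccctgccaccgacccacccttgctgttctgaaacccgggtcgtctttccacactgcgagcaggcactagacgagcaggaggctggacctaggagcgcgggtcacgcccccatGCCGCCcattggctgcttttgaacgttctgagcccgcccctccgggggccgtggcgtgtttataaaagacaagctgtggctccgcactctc

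ID2: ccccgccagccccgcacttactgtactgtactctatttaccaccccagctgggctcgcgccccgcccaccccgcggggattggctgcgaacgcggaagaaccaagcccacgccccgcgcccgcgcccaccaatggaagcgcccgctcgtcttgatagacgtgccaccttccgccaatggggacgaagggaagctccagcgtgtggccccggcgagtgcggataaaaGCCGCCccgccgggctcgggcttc

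ID3: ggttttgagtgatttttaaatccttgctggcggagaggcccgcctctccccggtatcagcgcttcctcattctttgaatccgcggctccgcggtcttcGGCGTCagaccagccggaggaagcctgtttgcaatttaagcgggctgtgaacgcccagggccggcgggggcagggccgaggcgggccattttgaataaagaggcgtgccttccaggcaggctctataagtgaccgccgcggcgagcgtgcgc

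SMAD3: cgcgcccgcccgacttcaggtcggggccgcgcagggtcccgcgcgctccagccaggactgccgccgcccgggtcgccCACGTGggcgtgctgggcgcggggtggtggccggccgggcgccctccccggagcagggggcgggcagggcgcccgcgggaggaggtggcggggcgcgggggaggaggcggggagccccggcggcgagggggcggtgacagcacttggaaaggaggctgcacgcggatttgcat

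SKIL: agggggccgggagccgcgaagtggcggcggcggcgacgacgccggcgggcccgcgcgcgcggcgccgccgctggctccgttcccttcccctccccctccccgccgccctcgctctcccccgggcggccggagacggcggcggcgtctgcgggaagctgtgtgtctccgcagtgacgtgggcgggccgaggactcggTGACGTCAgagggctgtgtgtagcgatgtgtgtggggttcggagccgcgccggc

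GGCGNC is the core that BMP-regulated SMAD proteins bind; it was found on either strand in 43.4% of all 35116 RefSeq windows of this length, and in 14 of the 22 windows of the set, at least 1 for each of the 9 genes with a window. CACGTG is the palindromic E-box core that TFEB and other factors of its class bind. It lay in 6.34% of all windows and in 1 of the 22 windows of the set. SMAD3, with 5 windows, was the only one of the 9 matched genes with it. TGACGTCA, the full cAMP response element, lay in 1.65% of all windows and in 1 of the 22, that of SKIL. CAGAC, the SMAD-binding element of TGF-beta-regulated SMAD proteins, lay in 38.0% of all windows and in 10 of the 22. Those 10 are windows of ID3, SKIL, SMAD3, SMAD7 and TGIF1. The retinoic acid receptor half-site AGGTCA lay in 12.1% of all windows and in 4 of the 22, of SMAD3, SMAD7 and TGIF1. Direct repeats of that half-site spaced by 2 or 5 bases were in none of the 22 windows, nor was the palindrome GTCTAGAC of paired SMAD sites, which 0.182% of all windows hold. GGCGCC, which overlaps GGCGNC, lay in 16.4% of all windows and in 2 of the 22, of SKIL and SMAD3. These are matches of letters in a short window and not measured binding sites.

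**Figure D1:**
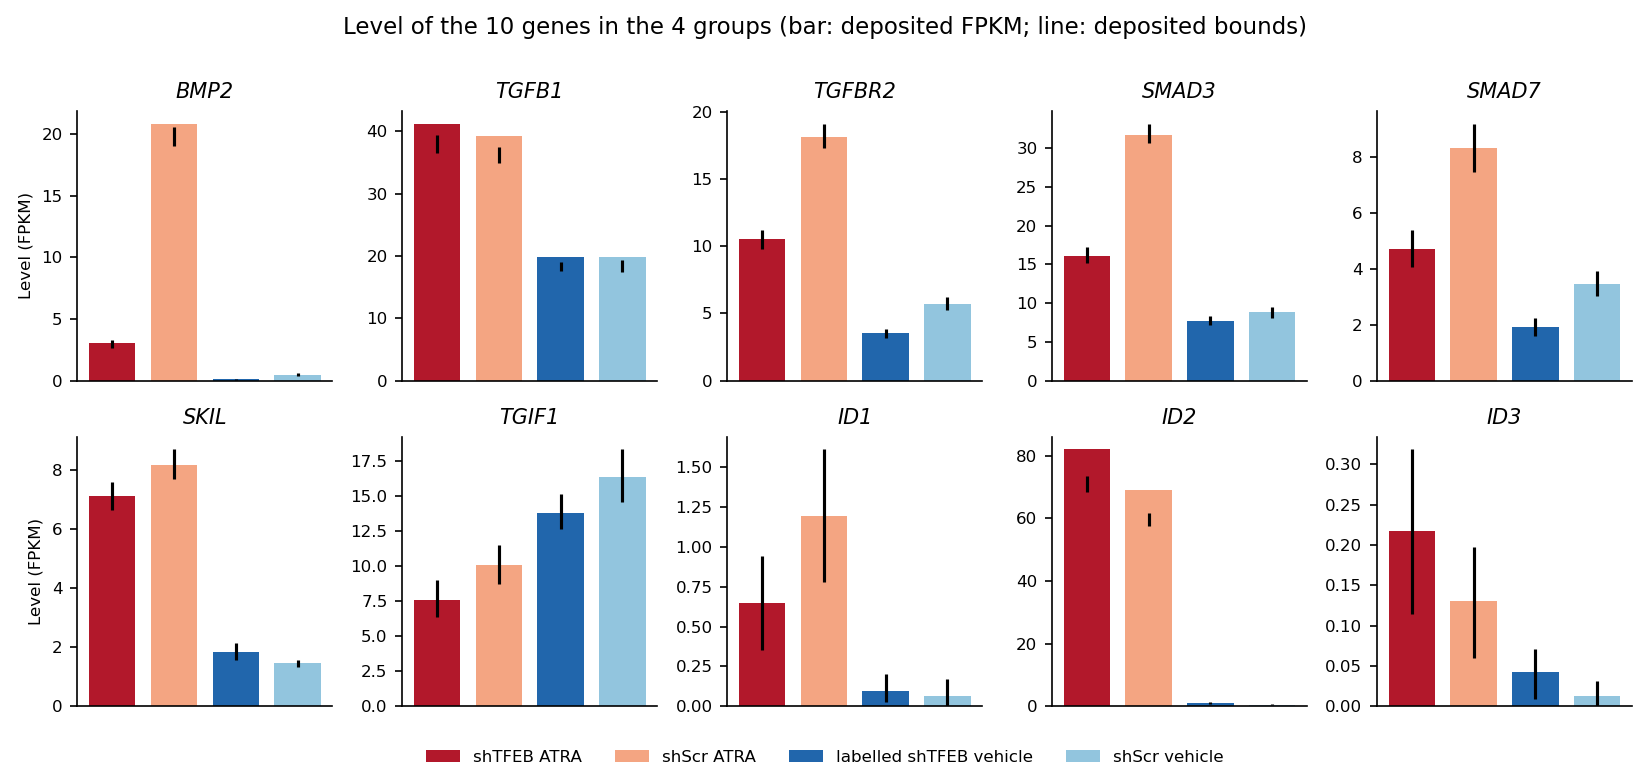
Level of each of the 10 genes in FPKM (vertical axis, linear from 0, own scale per gene) in shTFEB ATRA, shScr ATRA, vehicle cells labelled shTFEB and shScr vehicle. Bars are the deposited values and black lines the deposited bounds. The bounds lie below the value for TGFB1 in every group, for ID2 in both ATRA groups and for BMP2 in shScr ATRA cells. BMP2 was at 3.06 and 20.8 FPKM in the shTFEB and shScr ATRA groups, ID2 at 82.1 and 69.0 FPKM, and TGIF1 is the gene whose bars are lower under ATRA.

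Under ATRA, 9 of the 10 genes stood above their vehicle level in both lines, and TGIF1 stood below it. Of all compared genes 41.9% stood above theirs in shTFEB and 42.2% in shScr cells. These shares are description only, because the 10 were chosen with earlier results of these data known. The 9 also include ID1 and ID3, which lie under the mean of 1 FPKM that all compared genes reach. ID2 and BMP2 had the widest spans, with plain folds under ATRA in shTFEB and shScr cells of 71.3 and 128 for ID2 and of 32.9 and 43.0 for BMP2. The lines parted most at BMP2, which shTFEB cells held at 14.7% of the shScr level under ATRA. In the shTFEB response 5 of the 8 compared genes rose (BMP2, ID2, SKIL, TGFB1 and TGFBR2), where 11.5% of all compared genes rose, and none fell, where 10.5% did. In the shScr response 6 of the 8 rose (BMP2, ID2, SMAD3, SMAD7, SKIL and TGFBR2) against 12.5% of all compared genes, and none fell against 15.2%. The 8 exclude ID1 and ID3, whose means lie under 1 FPKM, and BMP2 and ID2 reached that mean through the ATRA groups, so their place in these counts follows from their rise. Counted instead by deposited bounds that do not overlap, 7 of the 8 were higher and TGIF1 lower in both lines; 31.8% of all compared genes were higher and 46.1% lower by that count in shTFEB cells, and 33.2% and 47.9% in shScr cells. Over all 10 genes, ID1 and ID3 included, the median log2 ratio was 1.00 in shTFEB and 1.29 in shScr cells. Over all compared genes, which leave ID1 and ID3 out, it was −0.13 and −0.15. Median-of-ratios rescaling shifted the median of all genes by 0.13 in the shTFEB and 0.15 in the shScr response, and the medians of the set lay 1.12 and 1.43 above those of all genes.

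BMP2 encodes a BMP ligand (hg19 chromosome 20, 6748745 to 6760910, 1 model). Its level was 3.06 FPKM in shTFEB ATRA cells (bounds 2.68 to 3.28), 20.8 in shScr ATRA cells (19.0 to 20.6), 0.0929 in vehicle cells labelled shTFEB (0.0591 to 0.129) and 0.484 in shScr vehicle cells (0.383 to 0.583). All 4 groups are apart from each other by these bounds, with the order shScr ATRA, shTFEB ATRA, shScr vehicle and labelled shTFEB vehicle. The shScr ATRA value itself lies above its upper bound. On the log2 scale with 1 FPKM added the ATRA ratio was 1.89 in shTFEB and 3.88 in shScr cells, and the difference of the 2 was −1.99. The 2 scales give different pictures of that difference: the plain fold in shTFEB cells was 76.5% of the fold in shScr cells, as BMP2 was also lower in the labelled shTFEB cells under vehicle. BMP2 was below shScr cells by a factor of 6.81 in shTFEB ATRA cells and of 5.21 in labelled shTFEB vehicle cells.

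The vehicle levels of BMP2 are low. At the estimated depths they correspond to about 24 fragments in the group labelled shTFEB (exact Poisson 95% interval 15.4 to 35.7) and about 107 in shScr (87.7 to 129), intervals that cover counting error only. The log2 ratio of −2.43 between the lines under ATRA was lower than that of all but 59 of the 11052 compared genes. BMP2 was the only one of the 8 compared genes to fall there, where 1.58% of all compared genes fell, and none was higher past the mark, where 2.67% were. With bounds apart, BMP2, SMAD3, SMAD7, SKIL and TGFBR2 were lower under ATRA, against 19.7% of all genes, and BMP2, SMAD7 and TGFBR2 under vehicle, against 14.9%. Between the vehicle groups none of the 8 passed it in either direction, where 1.06% of all genes were higher and 0.787% lower. For the difference of the 2 responses BMP2 alone was lower past the mark, against 1.86% of all genes, and none was higher, against 2.42%.

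Markers of other cells moved with this comparison. Summed over 15 genes, the eosinophil, basophil and mast cell list stood at 1287 FPKM in shTFEB ATRA cells and 183 FPKM in shScr ATRA cells, and at 1870 FPKM in labelled shTFEB vehicle cells and 1292 FPKM in shScr vehicle cells. Between the ATRA groups 6 of its 9 compared genes were higher past the mark in shTFEB cells and none was lower. These were CLC, EPX, PRG2, PRG3, HDC and GATA2, where 2.67% of all compared genes were higher. CLC, the Charcot-Leyden crystal protein gene, stood at 771 and 74.2 FPKM in the shTFEB and shScr ATRA groups. The list members CPA3 and FCER1A were listed at 0 in both ATRA groups, and KIT stood at 0.0114 and 0.00247 FPKM there. Between the vehicle groups 4 of the 9 (CLC, EPX, HDC and GATA2) were higher past the mark in labelled shTFEB cells and none was lower. Of all compared genes 1.06% were higher there. EPX stood at 82.8 FPKM in labelled shTFEB vehicle and 5.78 FPKM in shScr vehicle cells. The mature neutrophil list, 14 genes, summed to 1789 FPKM in shTFEB ATRA cells and 3510 FPKM in shScr ATRA cells, and to 143 and 144 FPKM in the labelled shTFEB and shScr vehicle groups. Between the ATRA groups 2 of its 12 compared genes were lower past the mark in shTFEB cells, where 1.58% of all compared genes were. These were S100A8 (220 FPKM in shTFEB, 685 in shScr cells) and S100A9 (380 and 1120). The other 10 did not pass the mark, and NCF4 was higher in shTFEB cells (29.4 and 16.3 FPKM). Between the vehicle groups the similar sums hide single genes of the neutrophil list. Of the 12 compared, 2 were higher past the mark in labelled shTFEB cells (ITGAM and NCF4) and 1 was lower (S100A9). Of all compared genes 1.06% were higher and 0.787% lower there. The part of these marker lists in the differences of BMP2 and of the genes below between the lines was not tested. In these bulk samples fewer cells that express a gene and less RNA per cell cannot be told apart.

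TGFB1, which encodes the TGF-beta 1 ligand (chromosome 19, 41836812 to 41859831, 1 model), had the smallest log2 ratios between the lines of the 10 genes, 0.07 under ATRA and 0.00 under vehicle. It stood at 41.2 FPKM in shTFEB ATRA cells, 39.3 in shScr ATRA cells, 19.9 in vehicle cells labelled shTFEB and 19.8 in shScr vehicle cells. The 2 ATRA groups lie above both vehicle groups, and within a treatment the bounds of the lines overlap. The plain fold under ATRA was 2.08 in shTFEB cells and 1.98 in shScr cells. The log2 ratios, 1.02 in shTFEB and 0.95 in shScr cells, fall on either side of the mark, so TGFB1 counted as risen in shTFEB cells alone, although their difference was 0.07: after median-of-ratios or upper-quartile rescaling the shScr ratio was 1.13 or 1.08. The deposited bounds enclosed the TGFB1 value in 0 of the 4 groups.

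**Figure D2:**
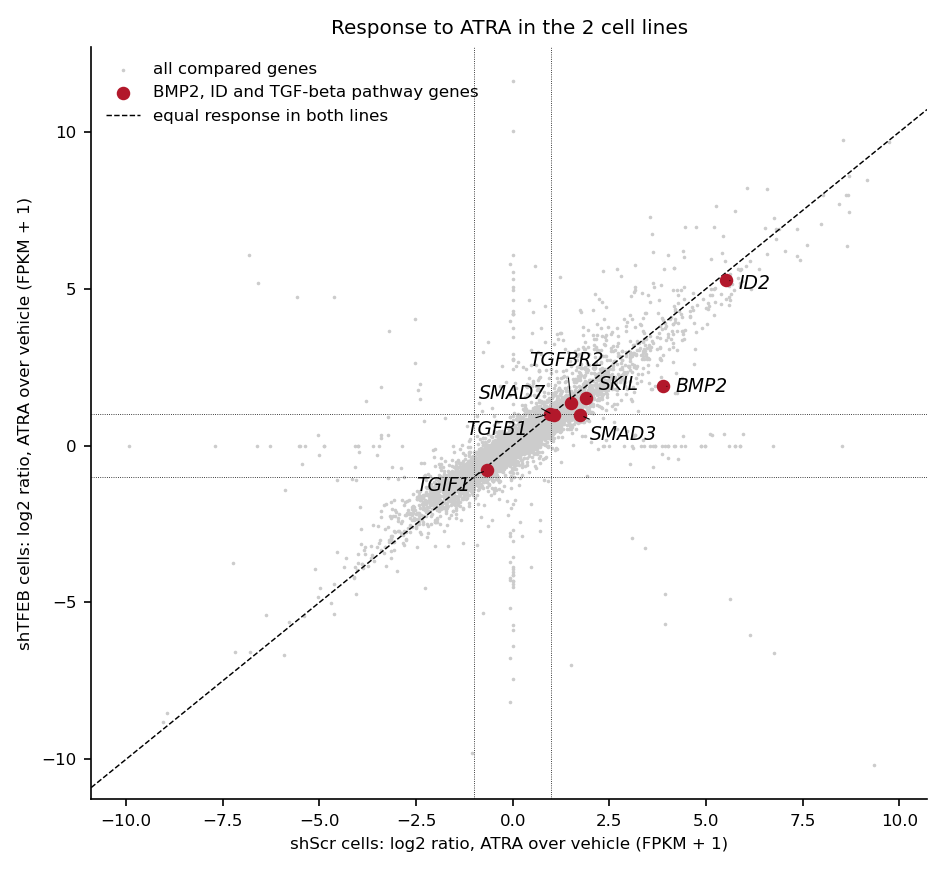
Log2 ratio of ATRA over vehicle (1 FPKM added) in shTFEB cells (vertical axis) against shScr cells (horizontal axis) for the 11052 compared genes in grey and the 8 compared genes of the set in red. The dashed line marks equal responses, dotted lines the 2-fold mark, and the vehicle values on the vertical axis are those labelled shTFEB. ID2 lies near the dashed line at 5.27 in shTFEB and 5.51 in shScr cells, while BMP2 lies below it at 1.89 in shTFEB and 3.88 in shScr cells.

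TGFBR2 encodes the type II receptor that binds TGF-beta first (chromosome 3, 30647994 to 30735633, 2 models). It stood at 10.5 FPKM in shTFEB ATRA cells (9.82 to 11.2), 18.1 in shScr ATRA cells (17.3 to 19.1), 3.50 in vehicle cells labelled shTFEB (3.18 to 3.83) and 5.72 in shScr vehicle cells (5.24 to 6.203). All 4 sets of bounds are apart. It rose in both lines, with log2 ratios of 1.35 in shTFEB and 1.51 in shScr cells, the second a plain fold of 3.17. TGFBR2 in shTFEB cells was at 58.0% of shScr under ATRA, in labelled shTFEB cells it was at 61.3% of shScr under vehicle, and neither ratio passed the 2-fold mark. The type I receptor gene TGFBR1 did not share the course of TGFBR2: it stood at 6.34 FPKM in shTFEB ATRA, 9.68 in shScr ATRA, 10.5 in labelled shTFEB vehicle and 12.4 in shScr vehicle cells.

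SMAD3 encodes the SMAD that carries TGF-beta signals to DNA (chromosome 15, 67358195 to 67487533, 4 models). Its level was 16.1 FPKM in shTFEB ATRA cells (15.1 to 17.2), 31.7 in shScr ATRA cells (30.6 to 33.1), 7.69 in vehicle cells labelled shTFEB (7.12 to 8.30) and 8.81 in shScr vehicle cells (8.11 to 9.51). The vehicle groups overlap in their bounds, and the ATRA groups are apart from them and from each other. ATRA gave a fold of 2.09 in shTFEB cells, a log2 ratio of 0.98 just short of the mark, and a fold of 3.60 in shScr cells, a log2 ratio of 1.74. After median-of-ratios or upper-quartile rescaling the shTFEB ratio was 1.11 or 1.01, past it. Under ATRA shTFEB cells held SMAD3 at 50.8% of the shScr level. The log2 ratio there was −0.94, short of the mark, with 194 of the 11052 compared genes further down, and upper-quartile rescaling took it to −1.04. The fold in shTFEB cells was 58.1% of that in shScr cells, and under vehicle the level in labelled shTFEB cells was 87.4% of that in shScr cells.

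SMAD7 encodes the inhibitory SMAD that blocks the receptors (chromosome 18, 46446223 to 46477081, 4 models). It stood at 4.71 FPKM in shTFEB ATRA cells (4.05 to 5.38), 8.32 in shScr ATRA cells (7.46 to 9.19), 1.91 in vehicle cells labelled shTFEB (1.60 to 2.25) and 3.46 in shScr vehicle cells (3.01 to 3.93). The 4 groups are apart, and shTFEB cells sit below shScr cells in both treatments. The fold under ATRA was 2.46 in shTFEB cells and 2.40 in shScr cells. Log2 ratios of 0.97 in shTFEB and 1.06 in shScr cells lie on either side of the mark, and the difference between them was −0.09. Median-of-ratios rescaling put the shTFEB ratio at 1.07. The shTFEB level was 56.6% of the shScr level under ATRA, and that of vehicle cells labelled shTFEB was 55.2% of shScr vehicle.

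**Figure D3:**
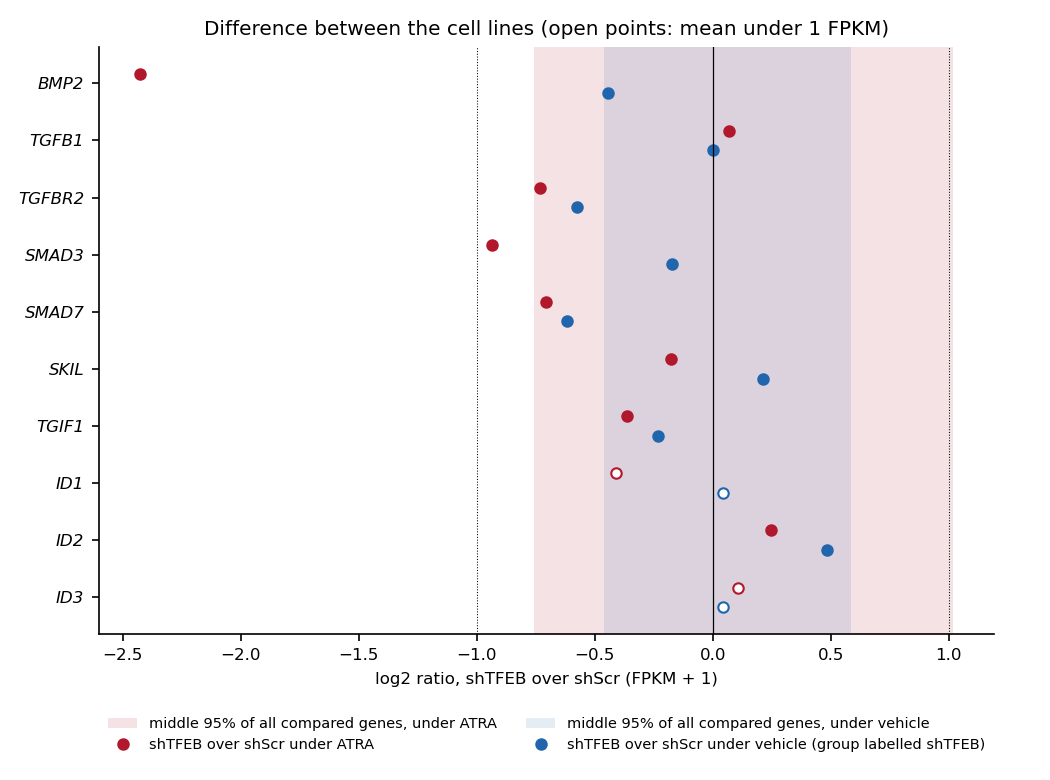
Log2 ratio of shTFEB over shScr cells (1 FPKM added, horizontal axis) for each of the 10 genes, under ATRA in red and under vehicle in blue. Shaded bands hold the middle 95% of all compared genes, from −0.76 to 1.02 under ATRA and from −0.46 to 0.59 under vehicle, dotted lines mark 2-fold, and open points are genes with a mean under 1 FPKM. BMP2 under ATRA lies at −2.43 and SMAD3 at −0.94, both left of the ATRA band, and TGFBR2 and SMAD7 lie left of the vehicle band at −0.58 and −0.62.

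SKIL encodes SnoN, a co-repressor that binds SMAD complexes and is itself a TGF-beta target (chromosome 3, 170075473 to 170114637, 4 models). It stood at 7.11 FPKM in shTFEB ATRA cells (6.63 to 7.60), 8.17 in shScr ATRA cells (7.69 to 8.69), 1.84 in vehicle cells labelled shTFEB (1.55 to 2.13) and 1.45 in shScr vehicle cells (1.33 to 1.58). The ATRA groups are far above the vehicle groups, whose bounds overlap. SKIL rose 3.87-fold in shTFEB cells and 5.64-fold in shScr cells, log2 ratios of 1.51 and 1.91. Its paralogue SKI, also a SMAD co-repressor, fell in both lines: it stood at 3.48 FPKM in shTFEB ATRA and 3.46 in shScr ATRA cells, against 8.31 in labelled shTFEB vehicle and 8.21 in shScr vehicle cells.

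TGIF1 encodes a homeodomain co-repressor of SMAD2 and SMAD3 (chromosome 18, 3411925 to 3458406, 11 models). It stood at 7.60 FPKM in shTFEB ATRA cells (6.36 to 8.99), 10.1 in shScr ATRA cells (8.76 to 11.5), 13.8 in vehicle cells labelled shTFEB (12.7 to 15.2) and 16.4 in shScr vehicle cells (14.6 to 18.4). Both ATRA groups lie under both vehicle groups, and within a treatment the bounds of the lines overlap. The ATRA level was 54.9% of vehicle in shTFEB cells and 61.3% in shScr cells, log2 ratios of −0.79 and −0.65 that do not reach the mark. TGIF1 thus stands opposite to SKIL among the co-repressors in direction, though not past the mark.

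ID2 had the largest ATRA ratio of the set (chromosome 2, 8822113 to 8824583, 1 model). It stood at 82.1 FPKM in shTFEB ATRA cells, 69.0 in shScr ATRA cells, 1.15 in vehicle cells labelled shTFEB and 0.537 in shScr vehicle cells. ID2 thus had the highest level of the 10 genes under ATRA, and in both vehicle groups 6 of the others stood above it. Its log2 ratios were 5.27 in shTFEB and 5.51 in shScr cells, and only 64 and 58 of all compared genes had a higher ratio. ID2 was higher in shTFEB than in shScr cells, 1.19-fold under ATRA and 2.14-fold under vehicle, which on the scale with 1 FPKM added is 0.25 and 0.49. It is the one compared gene of the set above shScr with bounds apart in both treatments, where 35% of all genes were above shScr with bounds apart under ATRA and 21.8% under vehicle. The vehicle levels correspond to about 113 fragments in labelled shTFEB cells (93.1 to 136, exact Poisson 95% interval) and 45 in shScr cells (32.8 to 60.2). The deposited bounds enclosed the ID2 value in 2 of the 4 groups, and in the ATRA groups they lie below it.

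ID1, in the same family, was low throughout (chromosome 20, 30193086 to 30194317, 2 models). It stood at 0.650 FPKM in shTFEB ATRA cells (0.353 to 0.943), 1.19 in shScr ATRA cells (0.778 to 1.61), 0.0971 in vehicle cells labelled shTFEB (0.0278 to 0.202) and 0.0651 in shScr vehicle cells (0 to 0.172). The ATRA groups are above the vehicle groups, and the lines overlap within each treatment. The plain fold under ATRA was 6.69 in shTFEB cells and 18.3 in shScr cells. On the scale with 1 FPKM added, ratios were 0.59 and 1.04, given as a description because its mean over the groups, 0.502 FPKM, kept it out of the comparison.

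ID3 (chromosome 1, 23884421 to 23886285, 1 model) was lower still, at 0.218 FPKM in shTFEB ATRA cells, 0.130 in shScr ATRA cells, 0.0423 in vehicle cells labelled shTFEB and 0.0124 in shScr vehicle cells. Corrected for relative depth, these values are whole multiples of the lowest one, within 0.000201% of whole numbers, and can be read as 16, 11, 4 and 1 fragments in that order. The fold of ATRA over vehicle was 5.15 in shTFEB cells (95% interval 1.66 to 21.2) and 10.5 in shScr cells (1.53 to 452), intervals of the counting error alone. Between the lines the fold of shTFEB over shScr was 1.67 under ATRA (0.729 to 3.99) and 3.41 under vehicle (0.337 to 168), so no difference was detectable at this depth. Among the 3 ID genes ID2 was the most abundant per length in each group.

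**Figure D4:**
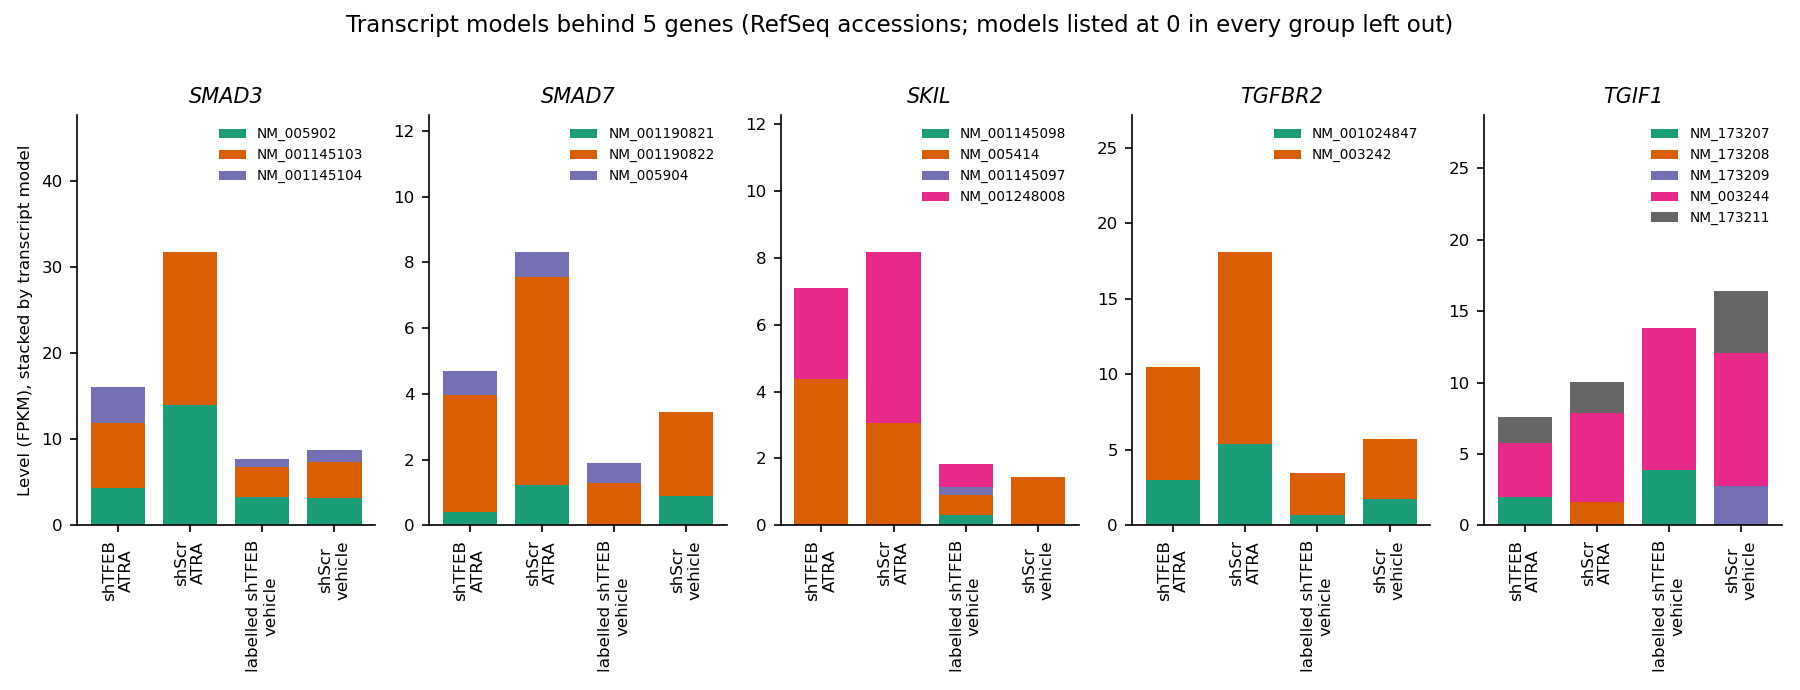
Level in FPKM (vertical axis, linear from 0, own scale per gene), stacked by RefSeq transcript model, for the 5 genes of more than 1 model that were compared, in shTFEB ATRA, shScr ATRA, vehicle cells labelled shTFEB and shScr vehicle. Models listed at 0 in every group are left out. In SMAD3 the shortest model holds 4.20 FPKM in shTFEB ATRA cells and is listed at 0 in shScr ATRA cells.

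The gene levels rest on 31 transcript models, of which 8 were listed at 0 in every group, 6 of them in TGIF1, and 12 were above 0 in every group. Models of a gene share exons, and the estimates can move fragments between them, so a model listed at 0 is reported as such and no fold is given against it. The SMAD3 levels split into 3 models. The full-length NM_005902 held 4.30 FPKM in shTFEB ATRA, 14.02 in shScr ATRA, 3.30 in labelled shTFEB vehicle and 3.15 in shScr vehicle cells. NM_001145103, which starts further downstream, held 7.61, 17.7, 3.51 and 4.23 FPKM in the same groups. Both carried the lower shTFEB level under ATRA, whereas NM_001145104 held 4.20 FPKM in shTFEB ATRA cells and was listed at 0 in shScr ATRA cells. For the highest model alone, the shTFEB over shScr log2 ratio of SMAD3 under ATRA was −1.12, past the mark.

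In TGFBR2 the models kept a steadier division. NM_003242 took 71.5% of the gene in shTFEB ATRA, 70.2% in shScr ATRA, 80.0% in labelled shTFEB vehicle and 69.8% in shScr vehicle cells, with NM_001024847 as the remainder. SMAD7 was led by 1 model, NM_001190822, at 75.7% in shTFEB ATRA, 75.9% in shScr ATRA, 68.2% in labelled shTFEB vehicle and 74.6% in shScr vehicle cells. The rest of SMAD7 was not divided steadily. NM_005904 took 31.8% in labelled shTFEB vehicle cells and was listed at 0 in shScr vehicle cells. NM_001190821 was listed at 0 in labelled shTFEB vehicle cells and took 25.4% in shScr vehicle cells. SKIL was divided less evenly. NM_001248008 held 2.73 FPKM in shTFEB ATRA cells, 5.13 in shScr ATRA cells and 0.701 in labelled shTFEB vehicle cells, and it was listed at 0 in shScr vehicle cells, where NM_005414 took the whole of the level. TGIF1 was led by NM_003244, at 3.73 FPKM in shTFEB ATRA, 6.27 in shScr ATRA, 9.96 in labelled shTFEB vehicle and 9.31 in shScr vehicle cells. That model alone gives a log2 ratio of −1.21 for ATRA in shTFEB cells, past the mark that the sum of models did not reach. In shScr cells it gives −0.50, short of the mark. The share of the gene that NM_003244 took was 49.1% in shTFEB ATRA and 72.0% in labelled shTFEB vehicle cells. NM_173211 held 1.86 FPKM in shTFEB ATRA cells and was listed at 0 in labelled shTFEB vehicle cells. The ratio of 1 model can thus move with the division between models.

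The profile over the 4 groups was compared with that of 10306 genes for the 4 members with the widest span, as the distance between log2 levels after removing each gene's mean. The distance is over 4 values and says nothing about function. Nearest to ID2 were CD101 (0.31 log2 units), the complement gene C3 (0.34) and the defensin pseudogene DEFA9P (0.35). C3 stood at 76.6 FPKM in shTFEB ATRA, 88.3 in shScr ATRA, 1.18 in labelled shTFEB vehicle and 0.742 in shScr vehicle cells. Nearest to BMP2 were ORM1, which encodes the acute-phase protein orosomucoid (0.31), the formyl peptide receptor gene FPR2 (0.48) and STRA6, a receptor for retinol-binding protein (0.72). ORM1 stood at 2.51 FPKM in shTFEB ATRA, 23.5 in shScr ATRA, 0.0862 in labelled shTFEB vehicle and 0.293 in shScr vehicle cells, the same order of groups as BMP2. Nearest to TGFBR2 were ADM (0.11), NFAM1 (0.13) and the growth factor gene TGFA (0.16), and nearest to SMAD3 were SNX18 (0.10), UBL3 (0.14) and the leukotriene B4 receptor gene LTB4R (0.16).

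The wider pathway was read from 9 lists of 166 genes by role, of which 165 were in the tables and 77 were compared. Counting the members of the set, 16 rose and 8 fell in shTFEB cells, or 20.8% and 10.4% of the 77, where 11.5% of all compared genes rose and 10.5% fell. In shScr cells 16 rose and 9 fell, or 20.8% and 11.7%, where 12.5% of all compared genes rose and 15.2% fell. Without the members 11 of 69 rose in shTFEB and 10 of 69 in shScr cells (15.9% and 14.5%), nearer to those shares. In each line 7 of the 16 risen genes (BMP2, ID2, GDF15, LRRC32, RHOB, SPHK1 and THBS1) averaged under 1 FPKM in the vehicle groups and were compared only through the ATRA groups, so their place in the counts follows from their rise. Likewise NOG and E2F5 in shTFEB cells, and NOG and ZFYVE9 in shScr cells, were among the fallen through the vehicle groups. Between the lines 1 was higher and none lower under vehicle, where 1.06% and 0.787% of all genes were, and 4 were higher and 3 lower under ATRA, where 2.67% and 1.58% were. The single vehicle gene is E2F5, at 7.17 FPKM in labelled shTFEB vehicle cells and listed at 0 in the other 3 groups. The lists were written with earlier results of these data known and are described by counts alone.

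**Figure D5:**
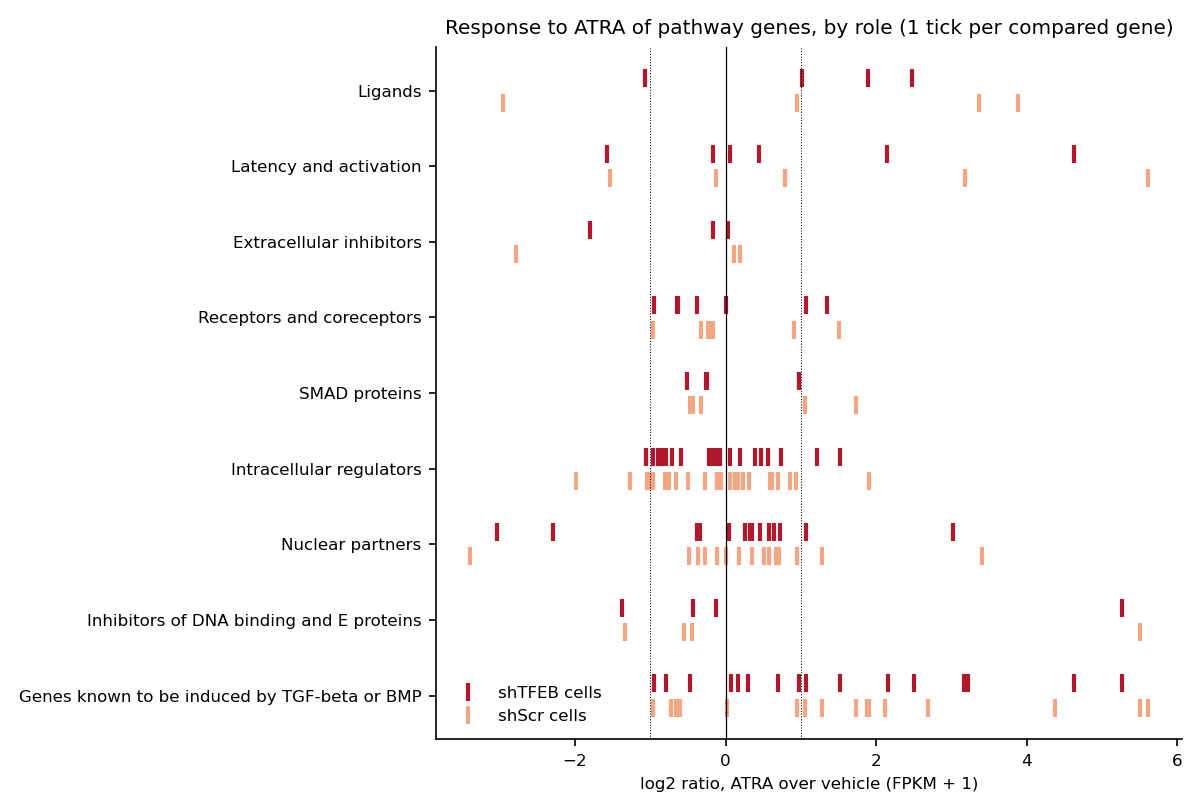
Log2 ratio of ATRA over vehicle (1 FPKM added, horizontal axis) for each compared gene of 9 lists by role, 1 tick per gene, in shTFEB cells (upper, dark red) and shScr cells (lower, orange). Dotted lines mark 2-fold. The ticks farthest to the right are ID2, at 5.27 and 5.51, and THBS1, at 4.63 and 5.61, in shTFEB and shScr cells, while 5 of the 7 receptors lie between the dotted lines in both lines.

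Among ligands 4 of 32 were compared. GDF15, a stress-induced member of the superfamily, rose in both lines, to 4.55 FPKM in shTFEB ATRA and 9.41 FPKM in shScr ATRA cells, while it was listed at 0 in labelled shTFEB vehicle cells and stood at 0.0129 FPKM in shScr vehicle cells. GDF11 stood at 2.86 FPKM in shTFEB ATRA cells and was listed at 0 in shScr ATRA cells, against 7.07 FPKM in labelled shTFEB vehicle and 6.77 FPKM in shScr vehicle cells, so no fold is given for it in shScr cells. The other ligands of the list were under the 1 FPKM mean.

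Genes that hold or release latent TGF-beta moved in both directions. LRRC32, which encodes GARP, the surface anchor of latent TGF-beta on regulatory T cells and platelets, rose to 3.48 FPKM in shTFEB ATRA and 8.24 in shScr ATRA cells, against 0.0109 in labelled shTFEB vehicle and 0.0193 in shScr vehicle cells. NRROS, which encodes the corresponding anchor of myeloid cells, fell to 22.4 FPKM in shTFEB ATRA and 20.9 in shScr ATRA cells, against 69.1 in labelled shTFEB vehicle and 62.1 in shScr vehicle cells. THBS1, a secreted activator of latent TGF-beta and a TGF-beta target, rose to 27.98 FPKM in shTFEB ATRA and 52.3 in shScr ATRA cells, against 0.169 and 0.0897 in the labelled shTFEB and shScr vehicle groups. Between the ATRA groups LRRC32 was lower in shTFEB cells (log2 ratio −1.05).

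Of 17 extracellular inhibitors 3 were compared, and NOG fell. NOG encodes noggin, which binds BMPs and keeps them from their receptors. It stood at 0.0501 FPKM in shTFEB ATRA and 0.0508 in shScr ATRA cells, against 2.67 in labelled shTFEB vehicle and 6.203 in shScr vehicle cells. The gene for this antagonist was thus lower under ATRA, where BMP2 was higher, with log2 ratios of −1.81 in shTFEB and −2.78 in shScr cells.

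Of the 7 receptors compared, TGFBR2 and BMPR2 rose in shTFEB cells, and TGFBR2 rose in shScr cells. BMPR2, the BMP type II receptor gene, stood at 4.97 FPKM in shTFEB ATRA, 3.83 in shScr ATRA, 1.83 in labelled shTFEB vehicle and 1.56 in shScr vehicle cells, with log2 ratios of 1.07 and 0.91 in shTFEB and shScr cells. ACVRL1, a type I receptor gene of the endothelial BMP response, was at or below 1.41 FPKM and was not compared. Of the 5 compared SMAD genes, SMAD2, SMAD4 and SMAD5 passed the mark in no comparison, with ATRA log2 ratios between −0.52 and −0.24, so that SMAD3 and SMAD7 were the SMAD genes with a higher level under ATRA.

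Intracellular regulators numbered 24 compared genes. SKIL and the deubiquitinase gene USP15 (log2 ratio 1.21) rose in shTFEB cells, and SKIL alone rose in shScr cells. SKI and UCHL5 fell in shTFEB cells, and SKI, UCHL5, STRAP and ZFYVE9, which encodes the SMAD anchor SARA, fell in shScr cells. UCHL5, another deubiquitinase gene, stood at 33.5 FPKM in shTFEB ATRA and 16.1 in shScr ATRA cells, a log2 ratio of 1.01 between the lines. Among the 15 nuclear partners FOS and JUNB rose in both lines and MYC fell in both, to 54.6 FPKM in shTFEB ATRA and 25.6 in shScr ATRA cells, against 270.5 in labelled shTFEB vehicle and 279 in shScr vehicle cells. FOS stood at 15.9 FPKM in shTFEB ATRA, 21.1 in shScr ATRA, 1.08 in labelled shTFEB vehicle and 1.08 in shScr vehicle cells.

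Of the E proteins that ID proteins bind, TCF3 fell in both lines while TCF12 did not pass the mark. TCF3 stood at 5.26 FPKM in shTFEB ATRA and 5.08 in shScr ATRA cells, against 15.3 in labelled shTFEB vehicle and 14.4 in shScr vehicle cells, log2 ratios of −1.38 and −1.34 for ATRA in shTFEB and shScr cells. TCF12 stood at 15.1, 10.5, 16.6 and 14.7 FPKM in shTFEB ATRA, shScr ATRA, labelled shTFEB vehicle and shScr vehicle cells. ID2 mRNA was therefore above TCF3 mRNA per length under ATRA and below it under vehicle in both lines.

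Genes known to be induced by TGF-beta or BMP in other cells were compared in 16 cases, SMAD7, SKIL, TGIF1 and ID2 among them. In shTFEB cells 8 rose and none fell, where 11.5% and 10.5% of all compared genes did, and in shScr cells 10 rose and none fell, against 12.5% and 15.2%. Of those that rose, 4 in each line (ID2, RHOB, SPHK1 and THBS1) were compared only through their ATRA levels, so the counts over this list lend no support to a direction. SPHK1, the gene of sphingosine kinase 1, stood at 10.6 FPKM in shTFEB ATRA, 6.40 in shScr ATRA, 0.288 in labelled shTFEB vehicle and 0.151 in shScr vehicle cells, with log2 ratios for ATRA of 3.17 in shTFEB and 2.69 in shScr cells. IER3, an immediate-early survival gene, stood at 12.2 FPKM in shTFEB ATRA, 39.6 in shScr ATRA, 1.97 in labelled shTFEB vehicle and 0.955 in shScr vehicle cells, and the difference of its responses, shTFEB minus shScr, was −2.22 log2 units. CDKN1A, the p21 cell cycle inhibitor gene, stood at 3.92 and 6.54 FPKM in the shTFEB and shScr ATRA groups, against 2.98 and 1.05 in the labelled shTFEB and shScr vehicle groups. RHOB went the other way between the lines, at 9.36 FPKM in shTFEB ATRA and 3.81 in shScr ATRA cells, against 0.111 and 0.113 in the labelled shTFEB and shScr vehicle groups. Of the pathway genes named here, BMP2, LRRC32 and IER3 were lower past the mark in shTFEB ATRA cells than in shScr ATRA cells, and RHOB, MYC and UCHL5 were higher past it. GDF11 is the fourth higher gene and is listed at 0 in shScr ATRA cells.

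The identity of the cells was read from marker lists. Of 7 promyelocyte genes the sum was 695 FPKM in shTFEB ATRA, 809 in shScr ATRA, 2852 in labelled shTFEB vehicle and 4484 in shScr vehicle cells. MPO, the granule peroxidase, made up most of it, and ELANE, a defining promyelocyte gene, was at or near 0 in all groups. The neutrophil sum given above was higher under ATRA in both lines, with LCN2 at 0 in every group. Monocyte and macrophage genes summed to 90.9 FPKM in shTFEB ATRA, 93.6 in shScr ATRA, 1.78 in labelled shTFEB vehicle and 1.92 in shScr vehicle cells, in which C1QA, C1QB and MRC1 were at or near 0. Lymphoid genes summed to 133, 188, 39.0 and 39.1 FPKM in that order, mostly NKG7, with MS4A1 and GZMB at 0. Erythroid and megakaryocytic genes summed to 11.6, 3.89, 6.88 and 3.36 FPKM, with the haemoglobin genes at 0, and stromal and endothelial genes to 13.8, 15.3, 12.5 and 7.69 FPKM, with COL1A2, COL3A1 and LUM at 0. The neutrophil and monocyte sums moved with ATRA as ID2 and BMP2 did, and their part in those changes was not tested.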

How the data were processed

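RNA of NB4 cells was extracted on columns and made into TruSeq libraries, per the labels' protocols. TopHat, Cufflinks and Cuffdiff on hg19 are the tools and build named, per the submitters' processing notes; versions, and how the 2 samples of a group were combined, are not given in the sources used here. The authors deposited FPKM values, 1 per transcript model and group, with a lower and an upper bound on the same FPKM scale, for 65986 models. The titles of both shScr ATRA samples also carry the word vehicle, and the treatment field set their group.

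RefSeq names of GRCh38.p14 gave the symbols and matched 96.8% of 41159 accessions; coordinates are hg19, counted from 1. FPKM and bounds were summed per symbol with no further normalisation, and ratios were taken as log2 with 1 FPKM added for genes with a mean of at least 1 FPKM. No test could be run on single group values. Whole fragments of ID3 were read from depth ratios of values under 0.1 FPKM. Calculations used Python 3.11.15, pandas 2.3.3, numpy 2.4.6 and scipy 1.17.1 and were tested on simulated data. Ratios were recomputed with 0.1 and 5 FPKM added, without the filter, with a mean of at least 5 FPKM, 2 rescalings, the highest model, models with status OK and bounds that do not overlap.

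The genes of the set, the lists and the rule for named genes were chosen with earlier results of these data known. Named were all 10 genes, TFEB, up to 4 list genes past the mark per list and comparison with the largest ratios, and the 3 nearest profiles of the 4 widest-ranging genes; TGFBR1, TCF12, ACVRL1, SMAD2, SMAD4, SMAD5 and the marker genes are named beside them for contrast. Promoter windows were searched on both strands. A window was available for 9 of the 10 genes, all but BMP2.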

Additional observations from a re-analysis of the deposited data

Results flagged for a closer look

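Close to TGIF1 the tables list 4 assembled models without a gene symbol, between 3462264 and 3480436 on hg19 chromosome 18, starting 3858 bases past the end of TGIF1. They entered no comparison because they have no symbol. Their summed level was 3.48 FPKM in shTFEB ATRA cells and 4.70 FPKM in shScr ATRA cells, whereas all 4 models were listed at 0 in both vehicle groups, and TGIF1 itself was lower under ATRA. The signal stood out because the sum is above 0 in both ATRA groups and 0 in both vehicle groups; not each of the 4 models is above 0 under ATRA. Whether the models belong to TGIF1 transcripts was not tested.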

How the results depend on the processing

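With 8 compared genes and 5 comparisons, 342 log2 ratios were available over the settings. Of these, 317 kept their direction and their side of the 2-fold mark, and 9 stayed under the mark with the opposite sign. Another 5 dropped under it and 11 passed it, and no ratio past the mark changed sign. Settings of the filter (40 and 30 ratios), model status (40) and bounds (32) return the reported ratios, so they could not change a sign or size. Of 40 ratios in each other setting, direction and side were kept by 36 with 0.1 FPKM added and 34 with 5 FPKM. They were kept by 36 after median-of-ratios rescaling, 34 after upper-quartile rescaling and 35 with the highest model. With the highest model, taken in each group separately, 3 signs changed. They were SKIL between the vehicle lines (0.21 as reported, −0.53 here), its difference of responses (−0.39, 0.34) and TGIF1 between the vehicle lines (−0.23, 0.09). For SKIL the highest model was not the same one in every group, so those ratios compare different models. Another 3 sign changes were TGFB1 between the lines or in its difference of responses after upper-quartile rescaling. Its ratio between the lines under ATRA was then −0.04 in place of 0.07. All 5 losses came with a pseudocount of 5 FPKM. They were SMAD7 in shScr cells (0.65) and BMP2, SKIL, TGFB1 and TGFBR2 in shTFEB cells, where ID2 stayed past the mark at 3.82. With the highest model the ATRA ratio of TGIF1 in shTFEB cells was −1.21. With a pseudocount of 0.1 FPKM BMP2 passed the mark between the vehicle groups, lower in labelled shTFEB cells (log2 ratio −1.60). Upper-quartile rescaling and the highest model took SMAD3 past the mark between the ATRA groups, at −1.04 and −1.12 (shTFEB over shScr). After upper-quartile rescaling 206 of the 11052 compared genes were lower there. Shares of all compared genes are not given for the pseudocounts and the highest model, so no count of the set is read there. SMAD3 and SMAD7 in shTFEB cells lie near the mark, at 1.11 and 1.07 after median-of-ratios rescaling. No paired analysis was possible because each group has 1 pooled value, and for the same reason leaving out a sample was not run. Low levels limit ID1 and ID3 most.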
